A study of Homo sapiens with 6 samples.

Results

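The 10 genes described here drive or restrain the G1 phase of the cell cycle, and were followed in H929 cells given Mi-2 or DMSO. They were taken by symbol from a list of genes of this role that was drawn up with earlier results of these data known, and are the cyclin genes CCND2, CCND3, CCNE1 and CCNE2, the kinase genes CDK2, CDK4 and CDK6, the inhibitor genes CDKN1B and CDKN2C, and the phosphatase gene CDC25A. All 10 were found among 62703 gene IDs, a single ID each, and all 10 passed the filter on low counts. H929 is a long-established human cell line grown from multiple myeloma, a malignancy of the plasma cells that make antibodies, and its genotype is labelled WT in every sample. There were 3 samples that received 1 µM Mi-2, a compound that inhibits the protease MALT1, for 24 h. A further 3 received the solvent DMSO for 24 h. The sample titles carry the words bio rep, with the same number after them in every title. Whether the 3 libraries of a treatment stem from different cultures is not in the labels. The p-values here thus speak to the spread among these libraries, and that spread may be technical.

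In G1, D-type cyclins bind and activate the kinases CDK4 and CDK6, which begin to phosphorylate the retinoblastoma protein, the brake on the E2F transcription factors. Freed E2F raises cyclin E, which activates CDK2 and commits the cell to S phase. The phosphatase CDC25A removes inhibitory phosphates from CDK2, while p27 (CDKN1B) restrains cyclin E with CDK2, and p18 (CDKN2C) binds CDK4 and CDK6. In multiple myeloma, raised expression of a D-type cyclin is a common early feature, and CDKN2C is a gene recurrently lost in patients.

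Library totals ran from 21938900 to 23756700 estimated counts with Mi-2 and from 19980700 to 22651600 with DMSO. All 9 plasma cell markers were present in every library, with sums of 11216 to 13126 CPM with Mi-2 and 10445 to 13375 CPM with DMSO. Of these, SDC1 and CD38 fell and IRF4 and MZB1 rose. CPM are counts scaled to library size, with TMM factors between libraries. Of 9 T and NK cell markers, 8 stayed under 1 CPM (CD3D and CD8A at 0), and the sum, nearly all of it CD3E, was 40.3 to 46.2 CPM with Mi-2 and 27.5 to 33.8 CPM with DMSO. Of 8 stromal, endothelial and epithelial markers, 6 stayed under 1 CPM (COL1A2 at 0), and the sum, nearly all of it PECAM1 and KRT18, was 87.95 to 104.8 CPM with Mi-2 and 63.5 to 77.2 CPM with DMSO. The sums were 4.08 to 5.30 CPM with Mi-2 and 3.28 to 6.36 CPM with DMSO for 6 B cell markers, and 7.03 to 7.55 CPM with Mi-2 and 5.57 to 8.76 CPM with DMSO for 7 myeloid markers. For 8 erythroid and platelet markers (PF4 and PPBP at 0) they were 0.726 to 5.91 CPM with Mi-2 and 0.447 to 5.03 CPM with DMSO. CD3E, PECAM1 and KRT18 rose with Mi-2. The 13 mitochondrially encoded mRNAs took 4.86, 5.05 and 5.00% of counts in Mi-2 libraries 1, 2 and 3 and 4.46, 4.23 and 4.66% in DMSO libraries 1, 2 and 3. The part of these marker and mitochondrial differences in the results was not tested.

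The promoters of CDC25A and CDK4 are shown because both genes fell with Mi-2 and hold, before a RefSeq start of transcription, the motif of a factor known to act in G1. Each is the 250 bases before the RefSeq start on the gene's own minus strand (GRCh38.p14), in lower case with the matched motifs in capitals. In CDC25A (chr3:48188418-48188667) the capitals mark the E2F motif, and in CDK4 (chr12:57752311-57752560) they mark the E-box, the motif of MYC and its relatives. The CDK4 window lies inside the span that GENCODE 29 gives for the gene (57747727 to 57756013), so the RefSeq start used is not the outermost annotated start.
CDC25A: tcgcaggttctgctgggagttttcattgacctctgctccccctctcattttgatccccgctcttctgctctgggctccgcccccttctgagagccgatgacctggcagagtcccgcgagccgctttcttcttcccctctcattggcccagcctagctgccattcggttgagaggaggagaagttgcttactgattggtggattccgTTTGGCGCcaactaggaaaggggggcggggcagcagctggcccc
CDK4: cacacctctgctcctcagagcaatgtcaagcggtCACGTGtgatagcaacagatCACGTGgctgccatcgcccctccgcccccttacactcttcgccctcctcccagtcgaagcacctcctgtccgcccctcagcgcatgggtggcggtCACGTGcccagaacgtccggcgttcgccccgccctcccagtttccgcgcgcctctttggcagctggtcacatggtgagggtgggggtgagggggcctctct
The search covered 12 windows of 7 members (CCND3, CCNE1, CDK4, CDK6, CDKN1B, CDKN2C and CDC25A), on both strands, counting overlapping matches. The E2F motif was searched as TTTCGCGC, TTTGGCGC, TTTCCCGC or TTTGCCGC. It was found in the CDC25A window, as TTTGGCGC beginning 44 bases before the start, and in 2.79% of 35116 such windows of all genes. The E-box was searched as CACGTG, which reads the same on both strands. It was found 3 times in the CDK4 window, beginning 216, 196 and 101 bases before the start, and once in each of 2 of the CDKN2C windows. At least 1 E-box was present in 6.34% of all windows and 3 or more in 0.0797%. The NF-κB motif was searched in a single form, and other forms of it were not searched. That form was in none of the 12 windows and in 0.527% of all windows. CCND2, CCNE2 and CDK2 had no window and were not searched for any motif. Whether the members hold other forms of the NF-κB motif was thus not tested. These matches describe letters in the windows and were looked for after the values were seen. They are not evidence of binding.

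With Mi-2, the phosphatase gene CDC25A, the E-type cyclin gene CCNE2 and the kinase genes CDK2 and CDK4 fell. Their levels changed by -53.6% (CDC25A), -47.1% (CCNE2), -38.6% (CDK2) and -21.9% (CDK4). The D-type cyclin genes CCND2 and CCND3, CCNE1, CDK6 and both inhibitor genes did not pass the test. Of 10 members tested, 4 were called in either direction, where 11% of all 16082 genes tested were. All 4 were lower, where 6.03% of all genes were called lower, and 0 were called higher, where 5.02% of all genes were. A call is an adjusted p under 0.05 in edgeR's quasi-likelihood test with Benjamini-Hochberg adjustment over all genes tested. At an unadjusted edgeR p under 0.05, 7 members were lower and 1 was higher (CDKN1B). DESeq2, limma-voom and limma on the TPM values also called 0 higher. The median log2 fold change of the 10 members was -0.33 and 8 were negative, beside a median of 0.005 and 49.3% negative over all genes tested. The 4 calls held in limma on TPM with a filter on low TPM, those of CDC25A and CDK4 narrowly. With 1 added, adjusted p was 0.0496 for CDC25A, 0.0384 for CCNE2, 0.0372 for CDK2 and 0.0473 for CDK4. With 0.1 added it was 0.0454, 0.0342, 0.0345 and 0.0461 in the same order. All 4 calls were lost in limma on TPM without that filter (adjusted p = 0.155 for CDC25A, 0.116 for CCNE2, 0.0976 for CDK2 and 0.121 for CDK4). The ranges of the groups were separate for 6 members, where 32.3% of all genes had separate ranges. In whole-culture RNA, fewer cells of a kind, or in a phase of the cycle, and less RNA per cell cannot be told apart.

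**Figure D1:**
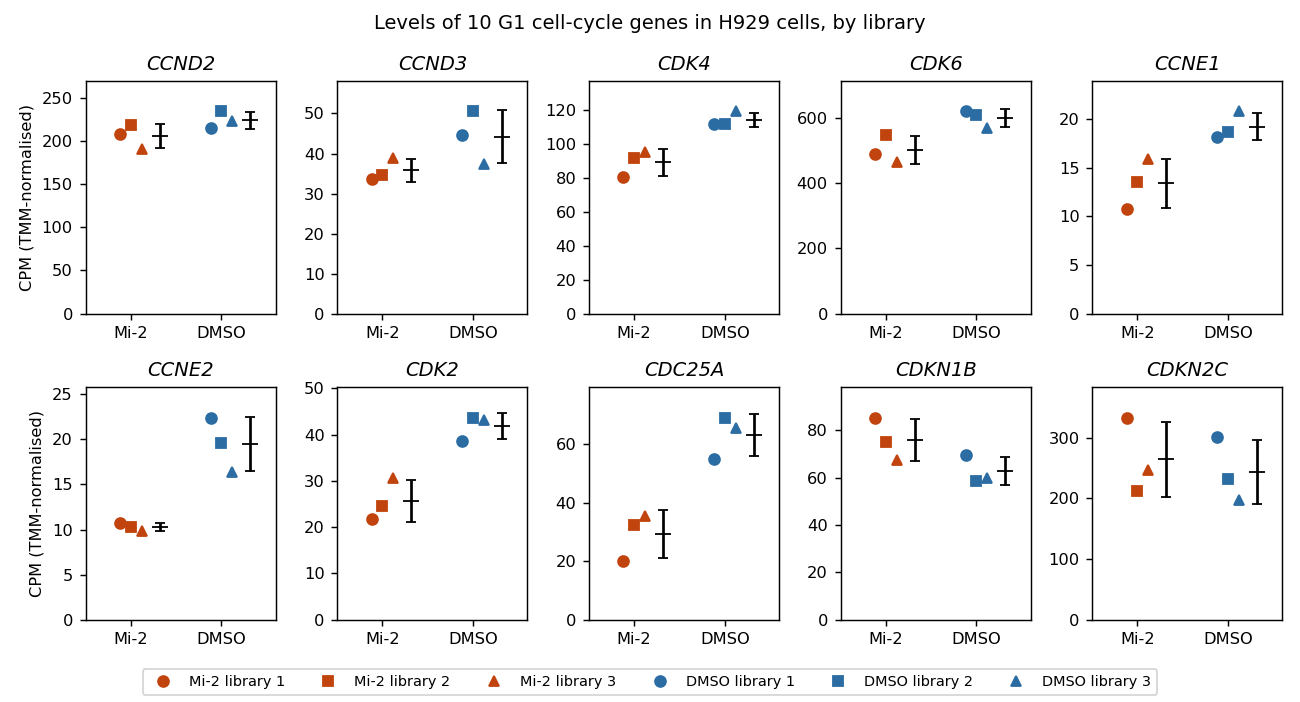
TMM-normalised CPM (vertical axes, each starting at 0) of the 10 genes in Mi-2 libraries (left, red) and DMSO libraries (right, blue), where circles, squares and triangles are libraries 1, 2 and 3 and the black bars beside them show mean ± SD. CDC25A, CCNE2, CDK2, CDK4, CDK6 and CCNE1 had separate ranges in the 2 groups, and the other 4 genes overlapped.

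**Figure D2:**
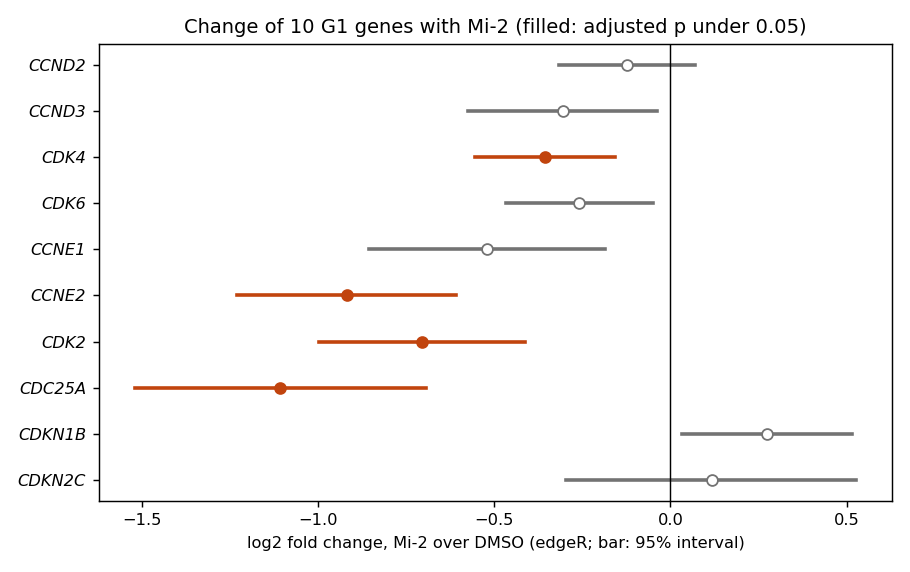
Log2 fold change of each gene, Mi-2 over DMSO (horizontal axis), with 95% intervals from the edgeR fit, where filled red points passed an adjusted p of 0.05. CDC25A (-1.11), CCNE2 (-0.92), CDK2 (-0.70) and CDK4 (-0.36) passed.

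CDC25A encodes a phosphatase that activates CDK2, and its log2 fold change was the largest of the 10. The gene (ENSG00000164045) lies on the minus strand of chromosome 3 (48157146 to 48188402, GENCODE 29 on GRCh38). It had 20.1, 32.2 and 35.6 CPM in Mi-2 libraries 1, 2 and 3 and 55.0, 69.0 and 65.4 CPM in DMSO libraries 1, 2 and 3. Every Mi-2 library was below every DMSO library, and Mi-2 library 1 was the lowest of the 6. The mean was 29.3 ± 8.11 CPM with Mi-2 and 63.2 ± 7.27 CPM with DMSO (SD, n = 3 each), a log2 fold change of -1.11 ± 0.19 (SE, edgeR adjusted p = 0.00783). The call held in all 6 fits that left out a library, with values from -1.27 to -0.90. In the deposited TPM, which are per length, CDC25A had 9.91, 11.95 and 15.98 in the Mi-2 libraries and 20.4, 34.8 and 25.8 in the DMSO libraries.

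CCNE2 and CCNE1 encode the E-type cyclins, the partners of CDK2 at entry to S phase. CCNE2 (ENSG00000175305, chromosome 8, 94879770 to 94896678, minus strand) had 10.8, 10.3 and 9.90 CPM in Mi-2 libraries 1, 2 and 3 and 22.4, 19.6 and 16.4 CPM in DMSO libraries 1, 2 and 3. The Mi-2 libraries lay close together, far below the lowest DMSO library. CCNE2 fell by 0.92 ± 0.14 on the log2 scale (SE, edgeR adjusted p = 0.00570), and the call held in all 6 fits with a library left out. Of its exonic bases, 37.0% are shared with INTS8 on the opposite strand, which had 88.7 CPM with Mi-2 and 83.2 CPM with DMSO. The sources used here do not give the strand setting of the counting, so reads of the shared part cannot be told apart.

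CCNE1 (ENSG00000105173, chromosome 19, 29811898 to 29824308, plus strand) had 10.8, 13.5 and 15.9 CPM in Mi-2 libraries 1, 2 and 3 and 18.2, 18.7 and 20.8 CPM in DMSO libraries 1, 2 and 3. The ranges were separate, but the log2 fold change of -0.52 ± 0.15 (SE) just missed the threshold (edgeR adjusted p = 0.0536). It passed with DESeq2 (adjusted p = 0.0199), limma-voom (0.0489), edgeR without a filter on low counts (0.00650) and without Mi-2 library 3 (0.0298). With the library number as a block in edgeR it also passed (adjusted p = 0.00822). Over all its alternatives the adjusted p ran from 0.00650 to 0.179. Together the E-type cyclins made up 17.1, 16.5 and 19.5 TPM in the Mi-2 libraries and 29.5, 26.5 and 25.9 TPM in the DMSO libraries.

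CDK2 is the kinase that cyclin E activates (ENSG00000123374, chromosome 12, 55966769 to 55972784, plus strand). It had 21.7, 24.5 and 30.7 CPM in Mi-2 libraries 1, 2 and 3 and 38.5, 43.7 and 43.1 CPM in DMSO libraries 1, 2 and 3. The highest Mi-2 library stayed below the lowest DMSO library. CDK2 fell by 0.70 ± 0.13 on the log2 scale (SE, edgeR adjusted p = 0.0113). Without DMSO library 2 it was just outside the threshold (adjusted p = 0.0506), and in the other 5 fits with a library left out it was called.

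CDK4 and CDK6 encode the kinases that D-type cyclins activate. CDK4 (ENSG00000135446, chromosome 12, 57747727 to 57756013, minus strand) had 80.5, 91.9 and 95.4 CPM in Mi-2 libraries 1, 2 and 3 and 112, 112 and 119 CPM in DMSO libraries 1, 2 and 3. The groups did not overlap, and CDK4 fell by 0.36 ± 0.09 on the log2 scale (SE, edgeR adjusted p = 0.0328). That call was lost without Mi-2 library 1 (adjusted p = 0.131), Mi-2 library 2 (0.0630), DMSO library 1 (0.0647), DMSO library 2 (0.0885) or DMSO library 3 (0.107), and the log2 fold change ran from -0.41 to -0.29 over all 6 such fits. CDK4 shares 43.2% of its exonic bases with TSPAN31 on the opposite strand, which had 23.2 CPM with Mi-2 and 16.5 CPM with DMSO.

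CDK6 (ENSG00000105810, chromosome 7, 92604921 to 92836594, minus strand) had 487, 548 and 465 CPM in Mi-2 libraries 1, 2 and 3 and 619, 607 and 567 CPM in DMSO libraries 1, 2 and 3. All 3 Mi-2 libraries were below the DMSO libraries, but the value of -0.26 ± 0.09 (SE) did not pass (edgeR adjusted p = 0.108, 95% interval -0.47 to -0.05). With the library number as a block in edgeR it passed (adjusted p = 0.0113). Per length, CDK4 stood above CDK6, with 86.7 ± 5.47 against 50.3 ± 4.49 TPM in Mi-2 libraries and 122 ± 13.4 against 60.4 ± 5.28 TPM in DMSO libraries (SD, n = 3 each). The sum of both was 131, 142 and 138 TPM in Mi-2 libraries 1, 2 and 3 and 200, 180 and 167 TPM in DMSO libraries 1, 2 and 3.

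Neither D-type cyclin gene of the list passed the test. CCND2 (ENSG00000118971, chromosome 12, 4273772 to 4305350, plus strand) had 208, 219 and 191 CPM in Mi-2 libraries 1, 2 and 3 and 215, 234 and 223 CPM in DMSO libraries 1, 2 and 3. The groups overlapped, and the log2 fold change of -0.12 ± 0.09 (SE) did not pass (edgeR adjusted p = 0.404). Its 95% interval ran from a 19.7% lower to a 5.04% higher level. CCND3 (ENSG00000112576, chromosome 6, 41934933 to 42050357, minus strand) had 33.7, 34.7 and 39.0 CPM in Mi-2 libraries 1, 2 and 3 and 44.6, 50.5 and 37.4 CPM in DMSO libraries 1, 2 and 3. DMSO library 3 lay within the Mi-2 range, and the value of -0.305 ± 0.12 (SE) did not pass (edgeR adjusted p = 0.134). For CCND3 the unadjusted edgeR p was 0.0299, with a 95% interval from -0.57 to -0.04.

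CCND1, the remaining D-type cyclin gene and not a member of the list, was expressed as well. It had 104, 115 and 101 CPM in Mi-2 libraries 1, 2 and 3 and 150, 140 and 137 CPM in DMSO libraries 1, 2 and 3, and it fell by 0.41 ± 0.09 on the log2 scale (SE, edgeR adjusted p = 0.0162). This call was lost without Mi-2 library 1 (adjusted p = 0.0725), DMSO library 1 (0.0508) or DMSO library 2 (0.0553). On the deposited TPM the CCND1 difference was smaller and not called by limma (-0.193 with 1 added and -0.197 with 0.1 added on the log2 scale, adjusted p = 0.259 and 0.269). Of the summed TPM of the 3 D-type cyclins, CCND1 took 40.9 ± 0.446% in Mi-2 libraries and 40.9 ± 1.34% in DMSO libraries, CCND2 took 36.8 ± 2.44% with Mi-2 and 34.6 ± 1.04% with DMSO, and CCND3 took 22.3 ± 2.04% with Mi-2 and 24.5 ± 2.38% with DMSO (SD, n = 3 each). The sum itself was 111, 113 and 106 TPM in Mi-2 libraries 1, 2 and 3 and 127, 141 and 112 TPM in DMSO libraries 1, 2 and 3.

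Neither inhibitor gene passed the test. CDKN1B, which encodes p27 (ENSG00000111276, chromosome 12, 12715058 to 12722371, plus strand), had 85.5, 74.9 and 67.5 CPM in Mi-2 libraries 1, 2 and 3 and 69.6, 58.8 and 59.99 CPM in DMSO libraries 1, 2 and 3. DMSO library 1 lay above Mi-2 library 3, so the groups overlapped. The value of 0.275 ± 0.108 (SE) had an unadjusted p of 0.0302 and an edgeR adjusted p of 0.135, with a 95% interval from 0.03 to 0.52. With the library number as a block in edgeR it passed (adjusted p = 0.0196). CDKN2C, which encodes p18 (ENSG00000123080, chromosome 1, 50960745 to 50974633, plus strand), had 333, 213 and 246 CPM in Mi-2 libraries 1, 2 and 3 and 301, 232 and 197 CPM in DMSO libraries 1, 2 and 3. Library 1 was the highest in both groups, and the spread within each group was wider than the difference between them (0.12 ± 0.18, SE, edgeR adjusted p = 0.735). Its sign turned without Mi-2 library 1 (-0.09) or DMSO library 3 (-0.02).

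Per length, CDKN2C was the most abundant of the 10 in both groups, at 262 ± 66.4 TPM with Mi-2 and 223 ± 55.6 TPM with DMSO (SD, n = 3 each). CDK4, CDK6 and CCND2 followed in that order in both groups, and the ranges of these 4 did not overlap between neighbours. In the Mi-2 libraries the order went on with CDKN1B, CCND3, CDK2, CDC25A, CCNE1 and CCNE2, and neighbours whose ranges overlapped were CCND2 with CDKN1B, CDK2 with CDC25A, and CDC25A with CCNE1. In the DMSO libraries it went on with CDKN1B, CCND3, CDC25A, CDK2, CCNE1 and CCNE2, and overlaps were between CDKN1B and CCND3, CCND3 and CDC25A, and CDC25A and CDK2. CCNE2 was lowest in both, at 5.82 ± 0.621 TPM with Mi-2 and 10.9 ± 1.98 TPM with DMSO.

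Within pairs of like role, no shift of the balance was detected. The log2 ratio of CCNE2 to CCNE1 in TPM (0.1 added) was -0.700, -1.073 and -1.269 in Mi-2 libraries 1, 2 and 3 and -0.325, -0.637 and -0.851 in DMSO libraries 1, 2 and 3, a difference of -0.41 (exact permutation p = 0.2, 0.267 adjusted over the 4 ratios, two-sided). The differences were 0.22 for CCND2 over CCND3 and 0.22 for CDK6 over CDK4 (exact permutation p = 0.2 each, 0.267 adjusted), and 0.05 for CDKN2C over CDKN1B (p = 0.5, 0.5 adjusted). The groups overlapped in all 4, and 3 libraries against 3 cannot give a p under 0.1. The changes of CCNE2 and CCNE1, and those of CDK4 and CDK6, were thus not shown to differ, nor shown to be alike.

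**Figure D3:**
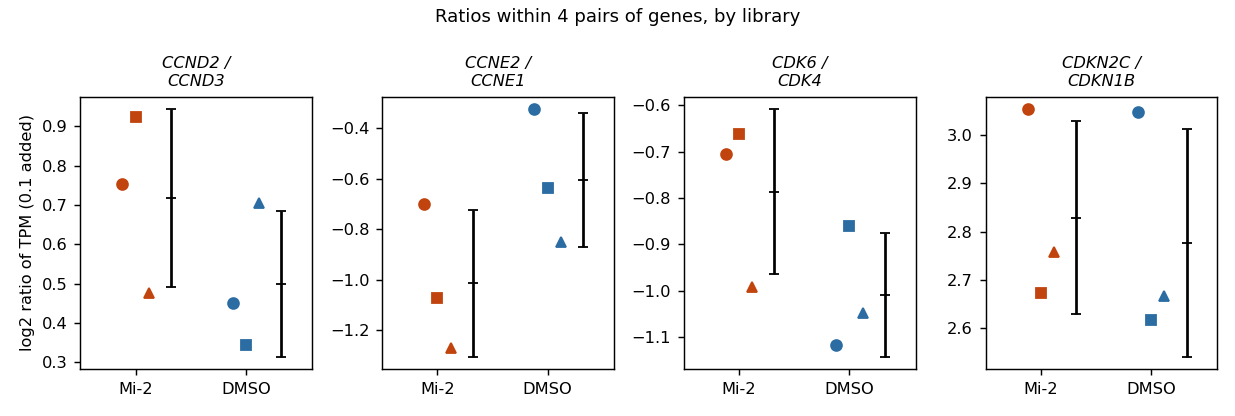
Log2 ratio of TPM (0.1 added, vertical axes that do not start at 0) within 4 pairs of genes in Mi-2 libraries (left, red) and DMSO libraries (right, blue), where circles, squares and triangles are libraries 1, 2 and 3 and the black bars beside them show mean ± SD. The groups overlap in every pair, and the largest difference is -0.41 for CCNE2 over CCNE1.

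The libraries within each group were not alike. Mi-2 library 1 had the lowest CPM of the 6 libraries for CDC25A, CDK2, CDK4, CCNE1 and CCND3 and the highest for CDKN1B and CDKN2C. For CCNE2 it was the highest of the Mi-2 libraries. Within the DMSO group, library 1 was likewise the lowest for CDC25A, CDK2 and CCNE1 and the highest for CDKN1B, CDKN2C and CCNE2. For CDK4 it was level with DMSO library 2, below DMSO library 3, and for CCND3 it lay between the other DMSO libraries. Without DMSO library 2 the count of members called lower was 2 (CDC25A and CCNE2), and it ran from 2 to 5 over the 6 fits with a library left out. CCND2, CCND3, CDK6, CDKN1B and CDKN2C were called in none of these 6 fits.

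**Figure D4:**
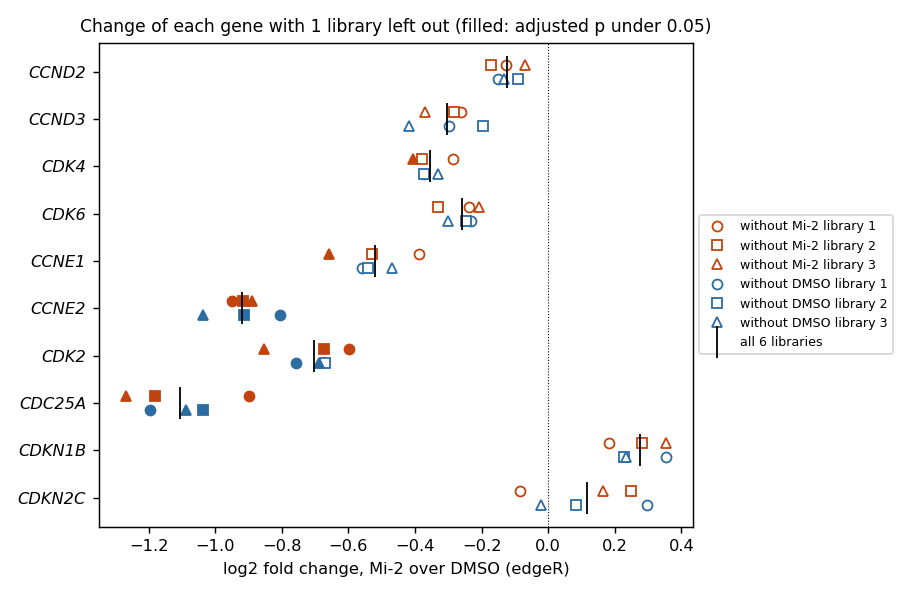
Log2 fold change of each gene, Mi-2 over DMSO (horizontal axis), with 1 library left out at a time (circles, squares and triangles for libraries 1, 2 and 3, red for Mi-2 and blue for DMSO) and with all 6 (black bars), where filled symbols passed an adjusted p of 0.05. CDC25A and CCNE2 are filled in all 6 fits, CDK2 in 5, and CDK4 and CCNE1 in 1.

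Around the members, 49 other genes of G1 and S phase were sorted by role into 7 lists, of which 48 were tested and CCNA1 had too few counts. In all, 14 fell and 2 rose, or 29.2 and 4.17% of those tested, beside 6.03 and 5.02% of all genes. The median log2 fold change of the 48 was -0.15. The lists were chosen with earlier results of these data known, so these shares are not independent of those results. The count of falls was 9 without Mi-2 library 1 or DMSO library 2. The count of rises was 0 without Mi-2 library 1, DMSO library 2 or DMSO library 3, and 1 without any of the other 3.

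Genes of the E2F list were among those that fell. Of 13 genes of the retinoblastoma family and E2F, 6 fell and 1 rose. E2F8 (-1.09 ± 0.14) and E2F7 (-0.77 ± 0.13), repressors of E2F targets, E2F1 (-1.005 ± 0.127), an activator of S-phase genes, and RBL1 (-0.71 ± 0.10), which encodes the retinoblastoma relative p107, had the largest falls, with edgeR adjusted p from 0.00314 to 0.00910, and kept their calls in all 6 fits with a library left out. E2F7 was not called by limma on the deposited TPM (adjusted p = 0.0882 with 1 added and 0.0782 with 0.1 added), where E2F8, E2F1 and RBL1 were. E2F1 had 40.2, 40.1 and 53.0 CPM in Mi-2 libraries 1, 2 and 3 and 80.0, 98.8 and 89.0 CPM in DMSO libraries 1, 2 and 3. RBL2, which encodes p130, the relative found in quiescent cells, rose (139, 122 and 118 CPM with Mi-2 and 108, 96.1 and 93.0 CPM with DMSO, 0.35 ± 0.10, edgeR adjusted p = 0.0478). Its call was lost without Mi-2 library 1, Mi-2 library 2, DMSO library 2 or DMSO library 3 (adjusted p = 0.180, 0.0806, 0.157 and 0.174), and in limma on the deposited TPM (0.205 with 1 or 0.1 added).

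WEE1 and PKMYT1, which encode kinases that place inhibitory phosphates on cyclin-dependent kinases, both fell. PKMYT1 had 32.1, 26.7 and 50.2 CPM in Mi-2 libraries 1, 2 and 3 and 74.7, 78.7 and 84.4 CPM in DMSO libraries 1, 2 and 3 (-1.125 ± 0.193, SE, edgeR adjusted p = 0.00883). WEE1 had 27.4, 25.7 and 30.2 CPM in Mi-2 libraries 1, 2 and 3 and 40.4, 48.4 and 42.6 CPM in DMSO libraries 1, 2 and 3 (-0.66 ± 0.11, edgeR adjusted p = 0.00668). On the deposited TPM WEE1 was not called by limma, with smaller differences of -0.417 (1 added, adjusted p = 0.105) and -0.44 (0.1 added, adjusted p = 0.102). The other 2 of the 4 genes of this list, CDC25B and CDC25C, encode the remaining phosphatases of the family and did not pass (-0.29 and -0.25, edgeR adjusted p = 0.156 and 0.369).

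Of 5 tested cyclin and kinase genes of S and G2 phase, 3 fell and all 5 had negative values. Those that fell were CCNA2, the S-phase cyclin gene (-0.82 ± 0.14, edgeR adjusted p = 0.00754), CDK1, the mitotic kinase gene (-0.77 ± 0.13, adjusted p = 0.00765), and CCNF (-0.53 ± 0.13, adjusted p = 0.0345). CCNF was not called without Mi-2 library 1, Mi-2 library 2, DMSO library 2 or DMSO library 3 (adjusted p = 0.122, 0.103, 0.0984 and 0.108), nor by limma on the deposited TPM (0.0751 with 1 added and 0.0719 with 0.1 added). Of 7 other G1 cyclin and kinase genes, CCND1, described above, was called, and the median log2 fold change was 0.02.

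The other inhibitor genes did not pass in the edgeR test. Their log2 fold changes were 0.13 for CDKN1C (adjusted p = 0.882), 0.17 for CDKN2A (0.574), 0.54 for CDKN2B (0.191) and -0.04 for CDKN2D (0.923). CDKN1A, the p53 target that encodes p21, is described after its values were seen. It had 101, 103 and 146 CPM in Mi-2 libraries 1, 2 and 3 and 117, 140 and 209 CPM in DMSO libraries 1, 2 and 3. The ranges overlapped, and library 3 was the highest in both groups (-0.41 ± 0.21, SE, edgeR adjusted p = 0.243, and 0.00140 without a filter on low counts).

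SKP2, which marks p27 for destruction, was the gene called among 7 of the turnover of G1 cyclins and p27. It had 72.9, 74.0 and 71.2 CPM in Mi-2 libraries 1, 2 and 3 and 99.1, 87.3 and 91.4 CPM in DMSO libraries 1, 2 and 3. The groups were well apart (-0.35 ± 0.08, SE, edgeR adjusted p = 0.0247), yet SKP2 was called in none of the 6 fits with a library left out. Its adjusted p there was 0.0902, 0.0521 and 0.0573 without Mi-2 library 1, 2 and 3, and 0.0801, 0.0528 and 0.0744 without DMSO library 1, 2 and 3. In limma on the deposited TPM it was 0.0812 with 1 or 0.1 added.

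Of 7 transcriptional regulators known to act on members, MYC fell and FOXO4 rose. MYC, whose protein binds the E-box, had 332, 338 and 399 CPM in Mi-2 libraries 1, 2 and 3 and 461, 506 and 500 CPM in DMSO libraries 1, 2 and 3 (-0.46 ± 0.10, SE, edgeR adjusted p = 0.0196). FOXO4, of the FOXO factors that induce CDKN1B, had 13.2, 10.3 and 13.3 CPM in Mi-2 libraries 1, 2 and 3 and 6.61, 7.91 and 8.39 CPM in DMSO libraries 1, 2 and 3 (0.68 ± 0.16, edgeR adjusted p = 0.0252). MYC was not called without Mi-2 library 1, Mi-2 library 2, DMSO library 2 or DMSO library 3 (adjusted p = 0.0809, 0.0624, 0.0793 and 0.0648). FOXO4 was called without Mi-2 library 2 (adjusted p = 0.0280) but not without Mi-2 library 1 or 3 (0.0976 and 0.0642) or DMSO library 1, 2 or 3 (0.0665, 0.0731 and 0.0572). On the deposited TPM FOXO4 was not called by limma, with smaller differences of 0.346 (1 added, adjusted p = 0.267) and 0.428 (0.1 added, adjusted p = 0.258).

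**Figure D5:**
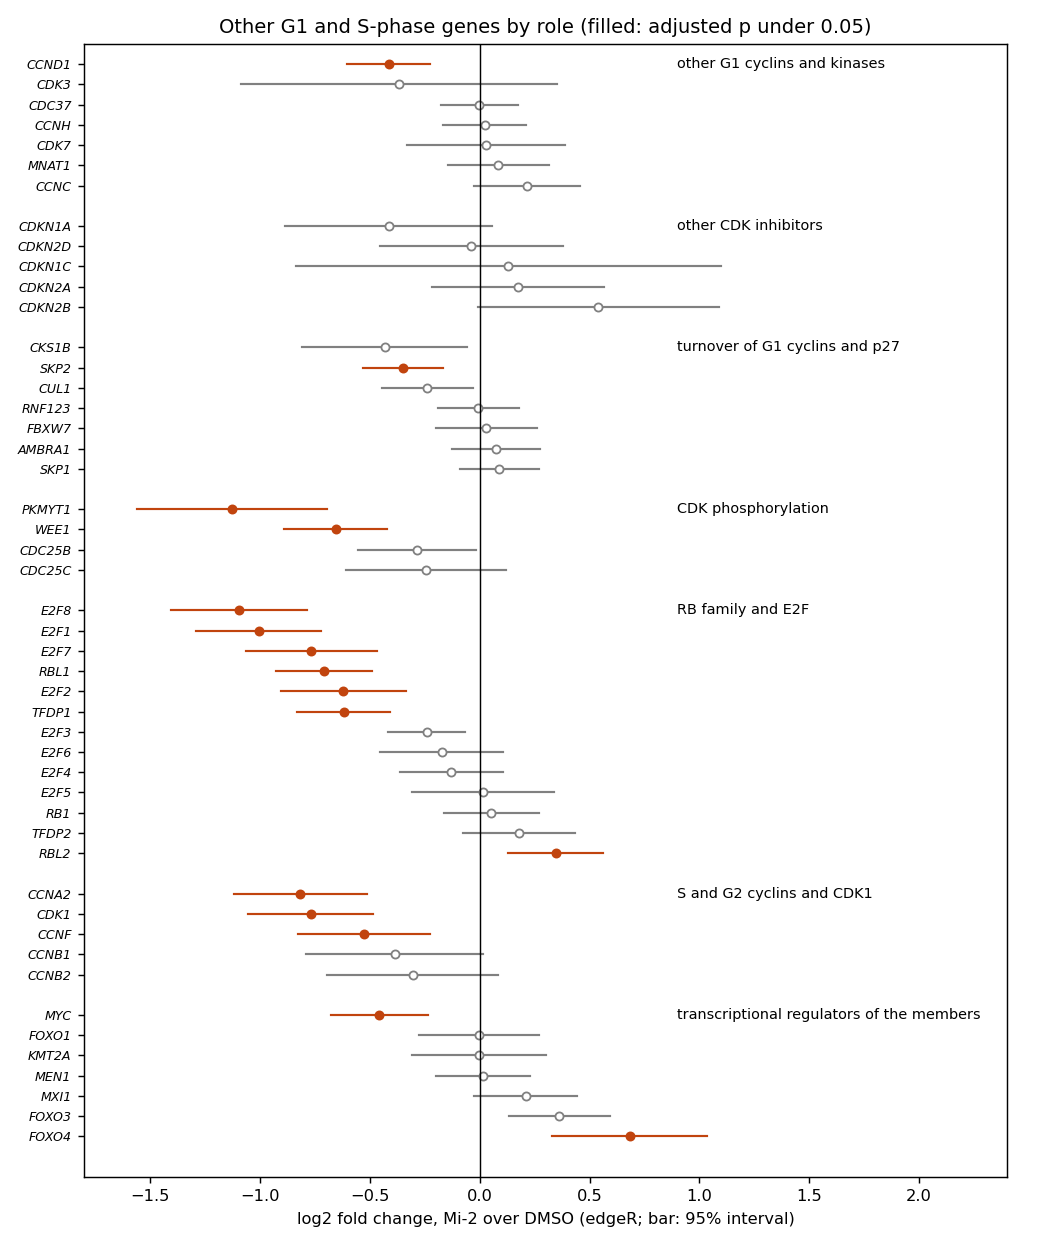
Log2 fold change, Mi-2 over DMSO (horizontal axis), of 48 other genes of G1 and S phase by role, with 95% intervals from the edgeR fit, where filled red points passed an adjusted p of 0.05. Of the 16 that passed, 14 lie below 0, and RBL2 (0.35) and FOXO4 (0.68) above it.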

How the data were processed

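RNA of H929 cells was sequenced as paired-end libraries on a NovaSeq, per the labels' protocols. Named in the submitters' processing notes, without roles, are RSEM 1.3.3, StringTie 2.1.0, HISAT2 2.1.0, fastp 0.19.5 and the build GRCh38.p13. The authors deposited estimated counts per gene, unscaled and partly fractional, and TPM, which are corrected for length and depth. How reads shared by overlapping genes were counted is not given in the sources used here, so such genes are uncertain.

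Groups came from the treatment labels. Library pairs within a group differed by 15.0 to 21.1 times the chi-square of counting alone, so none was a copy. Counts were rounded, filtered with filterByExpr (minimum count 10, total 15), scaled by TMM and tested over 16082 genes with edgeR 4.0.16 in R 4.3.3 (quasi-likelihood), in all 6 libraries with no other term. The biological coefficient of variation was 14.2%. Errors of fold changes follow from the F statistic. Alternatives used other scalings and filters, DESeq2 1.42.0, limma 3.58.1 (voom, or a trend on log2 TPM plus 1 or 0.1), leaving out single libraries, and a block for the number of the library. Ratios used exact permutation tests in SciPy 1.17.1. Of these tests, only the edgeR quasi-likelihood test was run on simulated counts. IDs were named by a table (62625) or GENCODE 29 (72), and 6 had no name. Promoter letters are RefSeq's. The rule for named genes took all members and, per list and direction, up to 4 called genes. CDC25B, CDC25C, CDKN1A, CDKN1C, CDKN2A, CDKN2B, CDKN2D and FOXO3 fall outside it and were named after their values were seen. Members and lists were chosen with earlier results of these data known.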

Additional observations from a re-analysis of the deposited data

How the results depend on the processing

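No filter on low counts gave 1221 genes higher and 1541 lower with Mi-2, against 808 and 969 with the filter. Limma on log2(TPM + 1) gave 229 and 381, and on log2(TPM + 0.1) 249 and 398, and in both 8 of the other G1 and S-phase genes were lower and 0 higher (2 at an unadjusted p under 0.05). With no TPM filter limma tested 31463 genes and called 0 in any direction, also among the members (0 lower, 6 at an unadjusted p under 0.05) and the other G1 and S-phase genes (0 lower, 16 unadjusted, and 0 higher, 2 unadjusted), and in all genes 1836 were higher and 1972 lower at an unadjusted p under 0.05. With a library left out, 216 to 715 genes were higher and 302 to 866 lower, 2 to 5 members lower and 0 higher, and 9 to 14 other G1 and S-phase genes lower and 0 to 1 higher. The counts of all genes were lowest without Mi-2 library 1 (216 and 302), DMSO library 2 (246 and 390) or DMSO library 3 (275 and 418), and 516 were higher without Mi-2 library 2. The cause was not tested.

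The library number as a replicate block gave 1791 genes higher and 2035 lower, and 1 member higher (CDKN1B, adjusted p = 0.0196) and 6 lower, CCNE1 (0.00822) and CDK6 (0.0113) among them. CDKN1A, outside the members, was also called lower under the block (-0.395, adjusted p = 0.00443). The deviations of same-numbered libraries from their group means correlated at 0.41, 0.06 and 0.26. Those of libraries with different numbers correlated at -0.33 to 0.08, highest for Mi-2 library 2 with DMSO library 3. The labels name no pairs, and for that reason the main fit has no block. Whether same-numbered libraries share a source of variation was not tested. The difference in log2 ratio of CDKN2C over CDKN1B was -0.159 from CPM and -0.061 to 0.187 with a library left out, so its sign was not stable. CDKN2C had log2 fold changes from -0.085 to 0.296 with a library left out. The other 9 members kept their sign under all 17 alternatives. CCNE2, CDK2, CDK4 and CDC25A lost their calls with limma on TPM without a TPM filter (adjusted p = 0.116, 0.0976, 0.121 and 0.155). CCNE2 rests on 236 to 238 counts a library with Mi-2 and 356 to 451 with DMSO and CCNE1 on 238 to 378 with Mi-2 and 366 to 451 with DMSO, the fewest of the members.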

Other observations

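The deposited TPM of CDC25A did not keep a fixed proportion to its counts. TPM divided by CPM was 0.492, 0.371 and 0.449 in Mi-2 libraries 1, 2 and 3 and 0.371, 0.503 and 0.395 in DMSO libraries 1, 2 and 3. For CDK6 the same quotient stayed between 0.0994 and 0.102 in the Mi-2 libraries and between 0.0958 and 0.105 in the DMSO libraries. CDK4 stood out in DMSO library 1, at 1.23, against 1.01, 0.950 and 0.963 in Mi-2 libraries 1, 2 and 3 and 1.04 and 0.943 in DMSO libraries 2 and 3. Its CPM in DMSO libraries 1 and 2 were equal to 3 digits (112), while its TPM were 137 and 116. The cause was not tested.

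FOXO3, named after its values were seen, was close to the threshold, with 423, 366 and 367 CPM in Mi-2 libraries 1, 2 and 3 and 327, 303 and 268 CPM in DMSO libraries 1, 2 and 3 (0.36 ± 0.10, SE, edgeR adjusted p = 0.0511).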
